A study of Mus musculus with 6 samples.

Results

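Amacrine cells were followed in retinal RNA through 10 genes: Gad1, Gad2, Slc6a9, Slc32a1, Chat, Slc18a3, Th, Calb2, Tfap2a and Tfap2b. These genes were chosen by name, with no threshold on measured values, and they are 10 of the 23420 genes in the count table. Bulk RNA-seq was performed on whole mouse retinas in 3 groups of 2 libraries each. Control retinas came from animals with no treatment. Light retinas were collected 4 days after 1 h of white light at 10000 lux. Light plus minocycline retinas had the same exposure and sampling day, and these mice received intraperitoneal minocycline at 45 mg/kg daily for 4 days. The labels name the strain CD1 for all groups, whereas the methods of the study name adult albino BALB/cJ mice of both sexes, a higher light intensity and another injection schedule. No vehicle injection is given in the labels for the control and light groups, and whether a library holds 1 animal is not stated. The methods call the libraries biological replicates, but the labels do not tie them to separate animals, so p-values measure only the spread between these samples. Because the minocycline columns of the table carry the same replicate number, these libraries are called minocycline A and minocycline B, in table order only.

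Amacrine cells are inhibitory interneurons of the inner retina. They contact bipolar cell terminals, ganglion cell dendrites and each other in the inner plexiform layer, and shape the timing and spatial extent of the signals that leave the eye. Most use GABA or glycine, and smaller classes add acetylcholine, dopamine or neuropeptides. The 10 genes therefore cover transmitter synthesis (Gad1, Gad2, Chat, Th), loading into synaptic vesicles (Slc32a1, Slc18a3), uptake (Slc6a9), a calcium-binding protein of several amacrine classes (Calb2) and a pair of transcription factors of the amacrine lineage (Tfap2a, Tfap2b). Several are not restricted to amacrine cells. Horizontal cells share the GABA enzymes and the AP-2 factors to some degree, and displaced amacrine cells and ganglion cells both contain calretinin, the product of Calb2. Outside the retina, surface epithelia and melanocytes also hold Tfap2a and Tfap2b, and lens epithelium holds Tfap2a.

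The libraries held 15205930 to 22856922 counts, and 3 counts, taken as the detection floor, corresponded to 0.131 to 0.213 CPM (counts relative to library size, scaled to a common total by TMM over the 6 libraries). All 10 genes lay above this floor in every library and passed the expression filter in all 3 comparisons. Control 1 differed from the other libraries in sex-linked genes, with 77778 counts of Xist against 25 to 188 elsewhere and 11 counts of Y-linked genes against 6532 to 12858. The minocycline libraries had the highest levels of corneal epithelial genes: the summed level of these 10 genes was 213 and 305 CPM there and at most 20.7 CPM in the other groups. Light 1 had the highest level of the lens crystallin gene Cryaa, at 109 CPM against 0.0475 CPM in light 2.

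The starts of the genes are shown first, because 2 of the members encode AP-2 factors and the AP-2 recognition letters can be looked up in the promoters of the others. RefSeq promoter windows (GRCm38.p6, 300 bases, 250 before to 50 after the start) were found for 9 of the 10 genes, all but Calb2. The gene spans given below come from another annotation, and some windows, such as those of Gad1 and Th, lie inside them. Starts found only in that annotation were not searched. In these windows 3 sets of letters were searched on both strands: the AP-2 consensus GCCNNNGGC, the cAMP response element TGACGTCA and the TATA box TATAAA. They occur in 16.6%, 1.79% and 13.6% of the 32851 promoters in the table, respectively. Among the members, the AP-2 letters were found in the windows of Gad2 and Slc18a3, the cAMP response element in that of Th, and the TATA letters, on the reverse strand, in that of Gad1. The windows of Slc6a9, Slc32a1, Chat, Tfap2a and Tfap2b held none of the 3. A match is a match of letters and not a measured binding site. The GABA-synthesizing pair Gad1 (chr2:70561879-70562178, plus strand) and Gad2 (chr2:22622077-22622376, plus strand) are given with Slc18a3 (chr14:32464801-32465100, minus strand) and Th (chr7:142899946-142900245, minus strand), 5′ to 3′ in the direction of transcription, with the matched letters in capitals. The first 2 of the 3 matches in Slc18a3 overlap and form 1 run of capitals.
Gad1: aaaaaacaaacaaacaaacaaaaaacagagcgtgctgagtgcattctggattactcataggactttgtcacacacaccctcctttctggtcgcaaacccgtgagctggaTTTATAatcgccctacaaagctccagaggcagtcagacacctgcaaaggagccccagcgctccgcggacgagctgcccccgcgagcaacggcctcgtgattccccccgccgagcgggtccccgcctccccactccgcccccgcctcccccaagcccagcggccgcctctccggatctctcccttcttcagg
Gad2: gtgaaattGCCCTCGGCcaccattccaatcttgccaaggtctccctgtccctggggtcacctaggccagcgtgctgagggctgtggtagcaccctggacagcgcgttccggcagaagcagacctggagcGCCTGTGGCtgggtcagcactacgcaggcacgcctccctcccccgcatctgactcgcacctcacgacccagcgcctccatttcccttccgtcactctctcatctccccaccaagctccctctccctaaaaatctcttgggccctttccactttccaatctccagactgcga
Slc18a3: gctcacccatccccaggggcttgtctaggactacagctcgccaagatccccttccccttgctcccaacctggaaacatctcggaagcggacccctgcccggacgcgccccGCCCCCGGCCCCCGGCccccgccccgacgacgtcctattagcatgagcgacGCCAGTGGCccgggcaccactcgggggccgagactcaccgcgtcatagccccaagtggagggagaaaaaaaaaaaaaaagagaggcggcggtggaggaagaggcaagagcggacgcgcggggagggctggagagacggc
Th: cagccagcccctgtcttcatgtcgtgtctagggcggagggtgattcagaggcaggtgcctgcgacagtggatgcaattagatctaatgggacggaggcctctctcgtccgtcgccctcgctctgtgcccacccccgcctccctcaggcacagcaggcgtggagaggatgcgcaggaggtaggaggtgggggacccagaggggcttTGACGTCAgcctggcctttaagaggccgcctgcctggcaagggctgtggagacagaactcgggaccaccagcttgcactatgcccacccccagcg

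Gad1 and Gad2 encode the glutamate decarboxylases that make GABA. Gad1 (chr2:70553072-70602014, plus strand, GRCm38, 19 exons) stood at 104 and 54.4 CPM in control 1 and 2, at 91.8 and 83.1 CPM in light 1 and 2, and at 157 and 67.6 CPM in minocycline A and B. Gad2 (chr2:22622205-22693874, plus strand, 16 exons) stood at 23.0 and 13.1, 24.8 and 24.0, and 34.5 and 18.8 CPM in the same order. For both enzymes minocycline A was the highest and control 2 the lowest library, and the light libraries lay close together. Only Gad2 had both light libraries above both controls. The log2 difference between light and control was 0.15 (SE 0.30) for Gad1 and 0.44 (SE 0.25) for Gad2, and neither passed the edgeR test (adjusted p = 0.777 and 0.280). In whole retina, fewer GABAergic cells and less transcript per cell cannot be told apart, and this holds for every level given here. The ratio of Gad1 to Gad2 counts, not corrected for gene length, was 3.47 to 4.54 within a library.

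Slc32a1 encodes the vesicular transporter that loads GABA and glycine into synaptic vesicles, so both kinds of inhibitory amacrine cell use it. This gene of 2 exons (chr2:158610767-158615748, plus strand) was measured at 29.4 and 14.4 CPM in the controls, 29.1 and 20.8 CPM after light, and 46.3 and 17.6 CPM with minocycline. Its order of libraries was that of Gad1, again with minocycline A at the top and control 2 at the bottom. The ratio of Gad1 to Slc32a1 counts stayed between 3.16 and 3.99 in the 6 libraries, a coefficient of variation of 8.65%, while Slc32a1 itself covered a 3.22-fold range of CPM. The log2 differences were 0.19 (SE 0.35) for light against control, 0.37 (SE 0.46) for minocycline against light and 0.60 (SE 0.61) for minocycline against control.

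Slc6a9 encodes GlyT1, the transporter that takes glycine back up and is a marker of glycinergic amacrine cells in the retina. Its levels (chr4:117834506-117875198, plus strand) were 88.9 and 111 CPM in the controls, 94.0 and 94.1 CPM after light, and 113 and 84.6 CPM with minocycline. It was the steadiest member, with a 1.34-fold range over all libraries, and the only member with control 2 above control 1. The ratio of Gad1 to Slc6a9 counts consequently ran from 0.490 in control 2 to 1.38 in minocycline A, with a coefficient of variation of 32.4%. None of its 3 log2 differences exceeded 0.09 in size (-0.08, 0.09 and 0.03, SE 0.15 to 0.20). The interval for light against control ran from 0.745-fold to 1.19-fold. Slc6a9 shares 1429 exonic bases with Ccdc24 on the opposite strand, a gene with 2699 to 4393 counts per library, and the use of the strand in counting is not given in the sources used here, so part of these counts may belong to the partner.

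Chat and Slc18a3 encode the acetylcholine-synthesizing enzyme and the vesicular acetylcholine transporter of starburst amacrine cells. They form 1 cholinergic locus on the minus strand of chromosome 14: the single exon of Slc18a3 (chr14:32462438-32464850) lies wholly within the span of Chat (chr14:32408203-32465989) and shares 0 exonic bases with it. Chat was at 5.40 and 3.59 CPM in the controls, 3.86 and 5.18 CPM after light, and 8.31 and 3.76 CPM with minocycline. Slc18a3 was at 1.71 and 1.41, 2.39 and 1.57, and 3.70 and 1.91 CPM. These values rest on 51 to 191 counts of Chat and 20 to 85 counts of Slc18a3. The libraries of light and control overlapped for both genes. Both minocycline libraries lay above both controls for Slc18a3, with a log2 difference of 0.90 (SE 0.44) that did not pass the test (edgeR adjusted p = 0.742). Chat differed by 0.48 (SE 0.42) in that comparison, and the ratio of the counts of the 2 genes varied from 1.61 in light 1 to 3.30 in light 2.

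Th encodes tyrosine hydroxylase, the first enzyme of dopamine synthesis, and marks the sparse dopaminergic amacrine cells. It was the lowest member by median level per length and, with Calb2, the most variable in CPM, with a 3.79-fold range (chr7:142892752-142931128, minus strand). Its levels were 2.84 and 1.06 CPM in the controls, 2.10 and 1.09 CPM after light, and 4.00 and 1.32 CPM with minocycline, from 15 to 92 counts. In each group the first library was higher than the second by more than 1.5-fold. The difference between control 1 and 2 (log2 1.34) was larger than any of the 3 differences between groups, which were -0.29 (SE 0.54) for light against control, 0.77 (SE 0.60) for minocycline against light and 0.51 (SE 0.64) for minocycline against control.

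Calb2 encodes calretinin, a calcium-binding protein of AII and starburst amacrine cells and of ganglion cells. It had the highest level per exon length of the 10 genes (chr8:110137502-110168210, minus strand) and the largest gap between the minocycline libraries. The levels were 91.3 and 45.4 CPM in the controls, 80.0 and 67.8 CPM after light, and 172 and 55.7 CPM with minocycline. Minocycline A was 3.08-fold above minocycline B, and control 1 was 2.01-fold above control 2. The mean of 114 ± 82.1 CPM (SD, n = 2) with minocycline therefore did not differ beyond its spread from 73.9 ± 8.64 CPM after light (log2 difference 0.63, SE 0.51, edgeR adjusted p = 0.542). The ratio of Calb2 to Gad1 counts was 0.816 to 0.882 in 5 libraries and 1.10 in minocycline A.

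Tfap2a and Tfap2b encode AP-2α and AP-2β, transcription factors that act in the specification of amacrine and horizontal cells and remain expressed in adult amacrine cells. Tfap2a (chr13:40715302-40738376, minus strand) was at 13.4 and 10.7 CPM in the controls, 13.8 and 15.4 CPM after light, and 16.1 and 9.38 CPM with minocycline. Tfap2b (chr1:19208914-19238576, plus strand) was at 75.8 and 57.7, 78.8 and 84.6, and 92.7 and 55.0 CPM. For both factors the light libraries lay above both controls and between minocycline A and B. They kept the most constant ratio of the gene pairs examined, 5.39 to 5.86 Tfap2b counts for each Tfap2a count, with a coefficient of variation of 3.12%. Against control, light differed by 0.28 (SE 0.23) for Tfap2a and 0.30 (SE 0.16) for Tfap2b, in log2 units. The adjusted p for Tfap2b in this comparison, 0.259, was the lowest of any member in the 3 comparisons (edgeR).

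**Figure D1:**
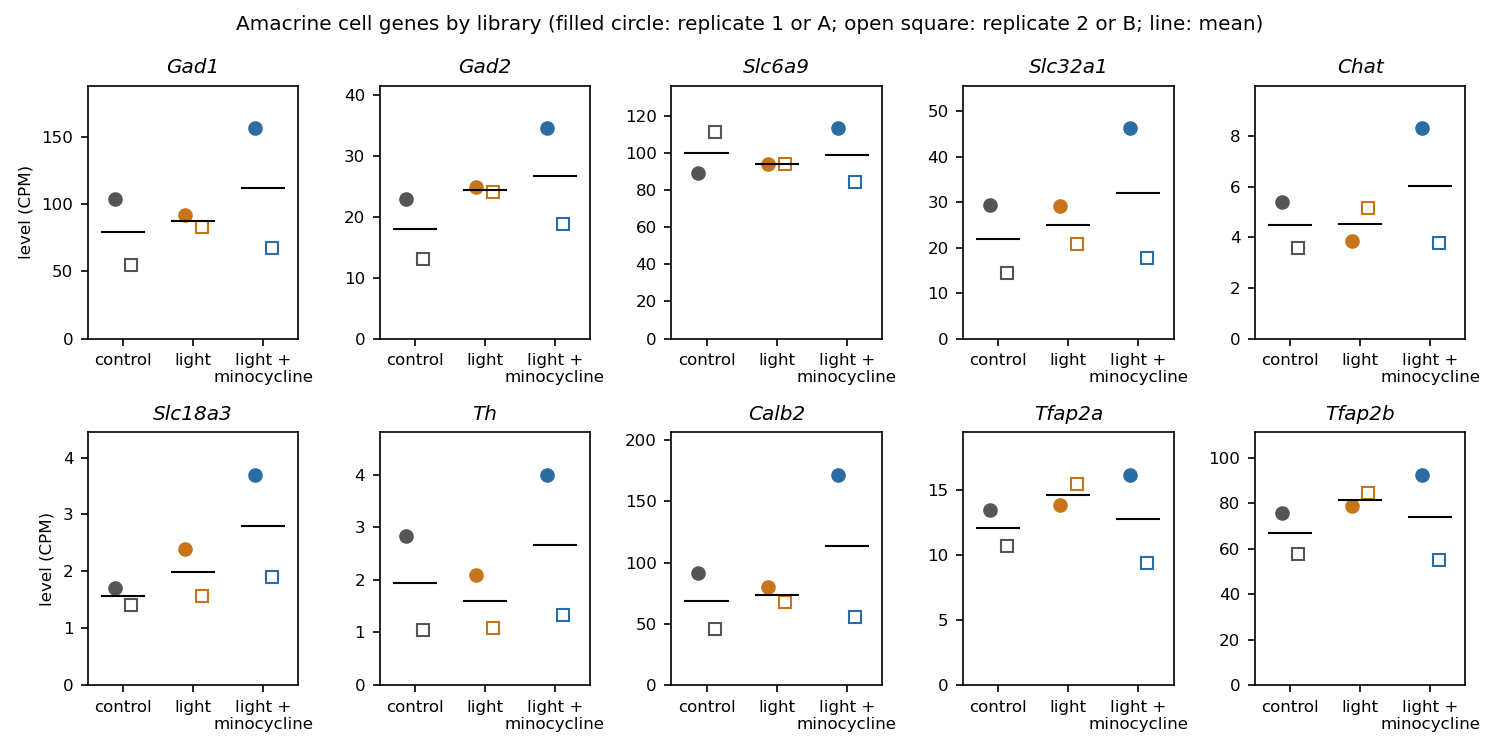
Level of each amacrine cell gene in the 6 libraries, in CPM on a linear axis from 0 that differs between genes. Filled circles are replicate 1 or library A, open squares replicate 2 or library B, and the lines are the means of 2 libraries; minocycline A is the highest library in all 10 panels.

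To order the genes by level, CPM per kilobase of exon was used. The count ratios above are not corrected for length and serve only to compare libraries. By the median over the 6 libraries the order was Calb2 (42.4), Slc6a9 (25.6), Gad1 (20.0), Tfap2b (12.4), Slc32a1 (8.93), Gad2 (4.09), Tfap2a (3.03), Chat (1.58), Slc18a3 (0.749) and Th (0.725). The ranges of every pair of neighbours in this order overlapped across libraries. Within libraries, Gad1 was above Tfap2b, Slc32a1 above Gad2, Tfap2a above Chat, and Chat above Slc18a3 in 6 of 6. Calb2 was above Slc6a9 in 5 of 6 libraries, with control 2, the library with the lowest Calb2, as the exception. Slc18a3 exceeded Th in 4 of 6, so these 2 lowest genes were not ordered beyond their spread.

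The first comparison asked how the amacrine genes stood 4 days after light damage. No member passed the test: 0 of 10 had an adjusted p under 0.05 (edgeR; lowest 0.259), 0 had an unadjusted p under 0.05, and DESeq2, which called 1954 genes in all, called 0. Over all 14349 genes tested with edgeR, 11.3% were called in this comparison (7.52% higher and 3.8% lower), 28.9% had an unadjusted p under 0.05, and 2.92% were called with an additional log2 cutoff of 2. The members had a median log2 difference of 0.17, against 0.00 over all genes, and 8 of 10 values were positive. Gad2, Tfap2a and Tfap2b had both light libraries above both controls, 3 of 10 members, where 30.6% of all genes did so and 60.9% had groups apart in either direction. The larger of the replicate differences of control and of light exceeded the difference between the groups for 10 of 10. The share of all genes that did so was not computed, so this count is not read as a trait of these genes. All 10 confidence intervals lay within 4-fold in either direction, and 6 of them within 2-fold. For the other 4 genes a 2-fold difference lay inside the interval. The median depended on single libraries: it was 0.54 without control 1 (9 of 10 positive), -0.09 without control 2 (5 of 10 positive) and 0.03 without light 1 (6 of 10 positive). It also moved with the scaling, as did that of all genes. With total library size the members' median was 0.41 beside 0.24 for all genes, 9 of 10 values were positive, and 3 members had an unadjusted p under 0.05 (lowest adjusted p 0.0636). With libraries scaled to bipolar and ganglion cell markers it was -0.23 beside -0.48 for all genes, with 1 of 10 positive.

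The second comparison asked whether minocycline altered these genes in light-exposed retinas. No member passed the test (0 of 10, edgeR, lowest adjusted p 0.516), 0 had an unadjusted p under 0.05, and DESeq2, which called 1201 genes in all, called 0. Of all 14750 genes tested with edgeR 0.0542% were called, 0.0475% with the additional log2 cutoff, and 21.1% had an unadjusted p under 0.05. The median log2 difference of the members was 0.37, against 0.01 for all genes. Single values were highest for Th (0.77), Calb2 (0.63) and Slc18a3 (0.53). Tfap2a and Tfap2b were the members with negative values, -0.18 (SE 0.28) and -0.13 (SE 0.23). For 0 of 10 members were the groups apart, whereas 54.8% of all genes had groups that did not overlap. In the plot by library, both light points lie between the minocycline points for 8 genes, and for Slc18a3 and Th light 2 lies below them. Minocycline A set the direction. With minocycline A left out, 0 of 10 values were positive and the median was -0.34. With minocycline B left out, 10 of 10 were positive and the median was 0.86, with 4 genes at an unadjusted p under 0.05 and an adjusted p of at least 0.296. These fits held all 5 remaining libraries and assume that the lone library varies like the other groups.

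The third comparison set minocycline-treated, light-exposed retinas against untreated controls, and it shares its samples with the other 2. Again 0 of 10 members passed (edgeR, lowest adjusted p 0.742), 0 had an unadjusted p under 0.05 and DESeq2 called 0 (167 over all genes), beside 0.162% of 14181 genes called with edgeR, 0.134% with the log2 cutoff and 7.01% at an unadjusted p under 0.05. All 10 log2 differences were positive in this fit, from 0.03 for Slc6a9 to 0.90 for Slc18a3, with a median of 0.53 against 0.02 for all genes. When libraries were scaled to bipolar and ganglion cell markers, 7 of 10 were positive and the median was 0.11, beside -0.32 for all genes. Slc18a3 was the 1 member whose groups did not overlap, where 15.9% of all genes had both minocycline libraries higher and 39.9% had groups apart in either direction. The intervals were wide: that of Calb2 ran from 0.445-fold to 6.65-fold, and 3 of 10 stayed within 2-fold in either direction. Without minocycline A 2 of 10 values were positive and the median was -0.23. Without minocycline B all 10 were positive, the median was 0.96, and 7 had an unadjusted p under 0.05, with a lowest adjusted p of 0.224. Leaving out control 1 gave a median of 1.01 and leaving out control 2 a median of 0.14.

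**Figure D2:**
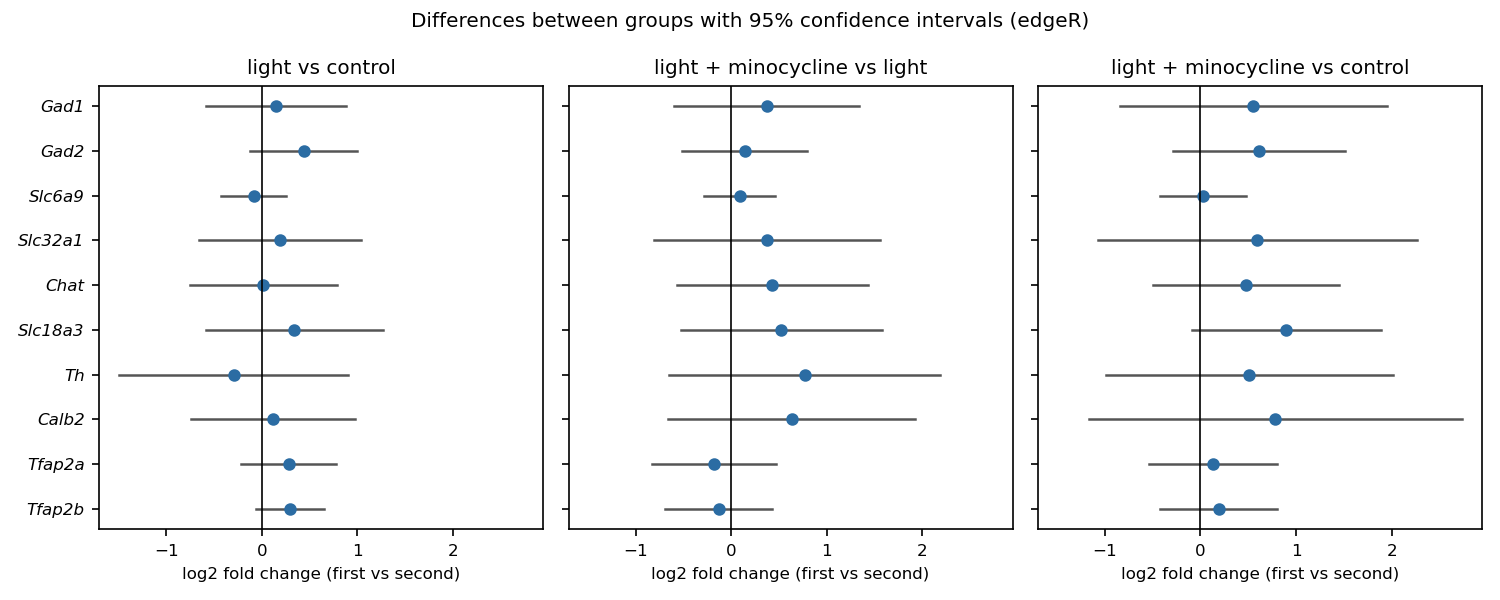
Log2 fold changes (edgeR, first named group against second) of the 10 genes in the 3 comparisons, with points for the estimates and bars for 95% confidence intervals. Every bar crosses 0, and the bar of Calb2 for minocycline against control reaches furthest, to a log2 value of 2.73.

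The largest differences in these genes were found between libraries of the same group. On the log2 CPM scale, control 1 exceeded control 2 by 1.34 for Th, 1.03 for Slc32a1, 1.01 for Calb2, 0.93 for Gad1 and 0.80 for Gad2. Minocycline A exceeded minocycline B by 1.62 for Calb2, 1.52 for Th, 1.39 for Slc32a1, 1.21 for Gad1, 1.12 for Chat, 0.92 for Slc18a3 and 0.87 for Gad2. Both AP-2 factors followed at 0.78 and 0.75, and Slc6a9 at 0.42. Light 1 and 2 had a median difference of 0.10, and Th (0.88), Slc18a3 (0.58) and Slc32a1 (0.48) differed most. The first library was higher by 1.5-fold or more for 5 of 10 members in the controls, where 7.84% of 14713 genes were, and for 9 of 10 with minocycline, where 11% were. In the light pair it was so for 1 of 10, Th, beside 2.3% of genes. These counts use log2 CPM with its prior count of 2. On the CPM scale, Slc18a3 in the light pair (1.53-fold) and Chat in the control pair (1.504-fold) also pass 1.5-fold. The 5 members of the control pair (Gad1, Gad2, Slc32a1, Th and Calb2) were all among the 9 of the minocycline pair, and 488 genes, or 3.32%, met the threshold in both pairs. Slc6a9 was the member that met it in neither pair. Control 1 also differs from control 2 in the sex-linked genes given above, whereas minocycline A and B did not differ in them (27 and 26 counts of Xist). The part of sex in the control difference was not tested.

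**Figure D3:**
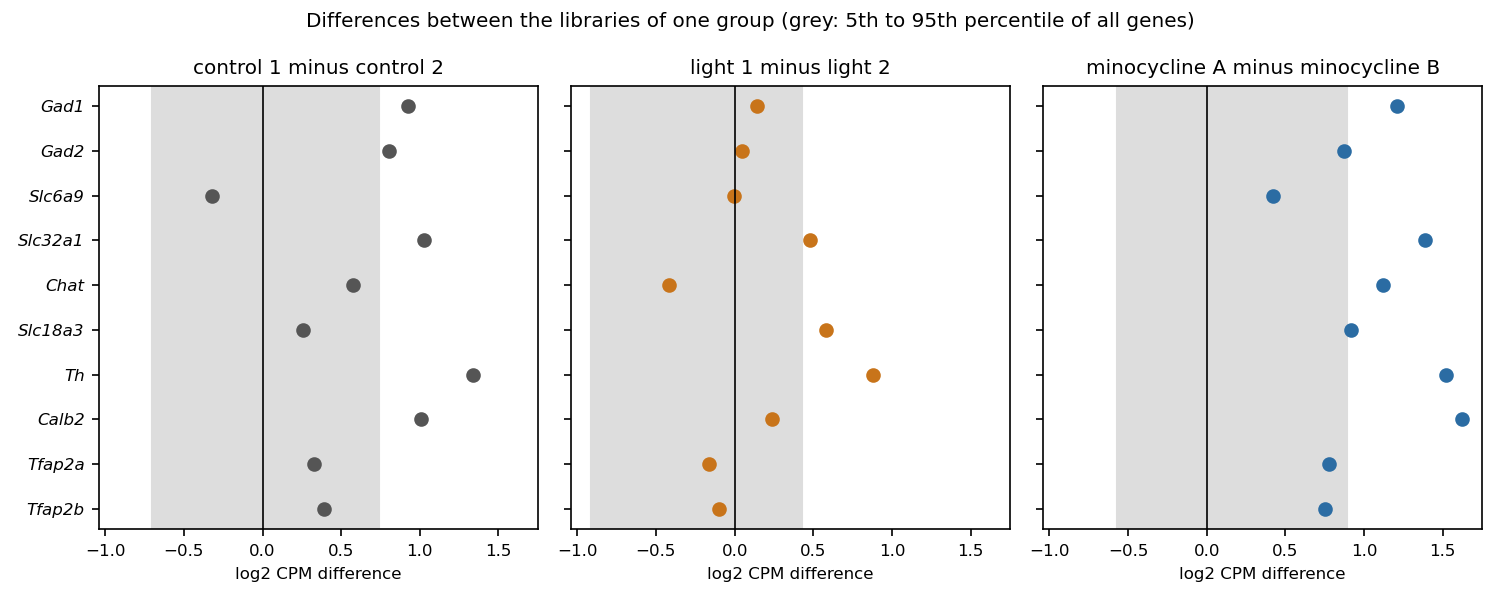
Difference in log2 CPM between the 2 libraries of each group for the 10 genes. Points are single genes and the grey band spans the 5th to 95th percentile of 14713 genes; 5 points in the control pair, 3 in the light pair and 6 in the minocycline pair lie above the band.

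Other cell types of the retina were read in the same libraries to show what moved with these differences. The summed level of the 10 amacrine genes was 435 and 313 CPM in the controls, 421 and 398 CPM after light, and 648 and 316 CPM with minocycline. The 11 ganglion cell markers, which include Pou4f1, Pou4f2 and Pou4f3, had the same highest and lowest library in their sums: 384 and 215, 359 and 321, and 635 and 309 CPM. In 8 of these 11 genes the first library was higher by 1.5-fold or more in both the control and the minocycline pair. Among 12 bipolar cell markers 0 did so, among 10 rod genes 0, among 8 cone genes 0, among 8 Müller cell genes 2 and among 4 horizontal cell genes 2. Horizontal cell genes had sums of 11.3 to 18.1 CPM. Microglia genes were at 65.3 CPM in minocycline A and 30.5 CPM in minocycline B, with 9 of 10 higher in A by 1.5-fold or more. They were at 31.1 and 37.6 CPM in control 1 and 2, and at 259 and 832 CPM in light 1 and 2. Pigment cell genes moved the other way, with 46.9 and 153 CPM in the controls, 59.6 and 86.3 CPM after light and 339 and 1447 CPM with minocycline. Their markers Tyr, Tyrp1 and Dct were at 10.3, 67.7 and 149 CPM in minocycline A and at 48.6, 310 and 654 CPM in minocycline B. Smooth muscle genes were at 204 CPM in minocycline A and 545 CPM in minocycline B. The part of these other cells in the amacrine differences was not tested.

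**Figure D4:**
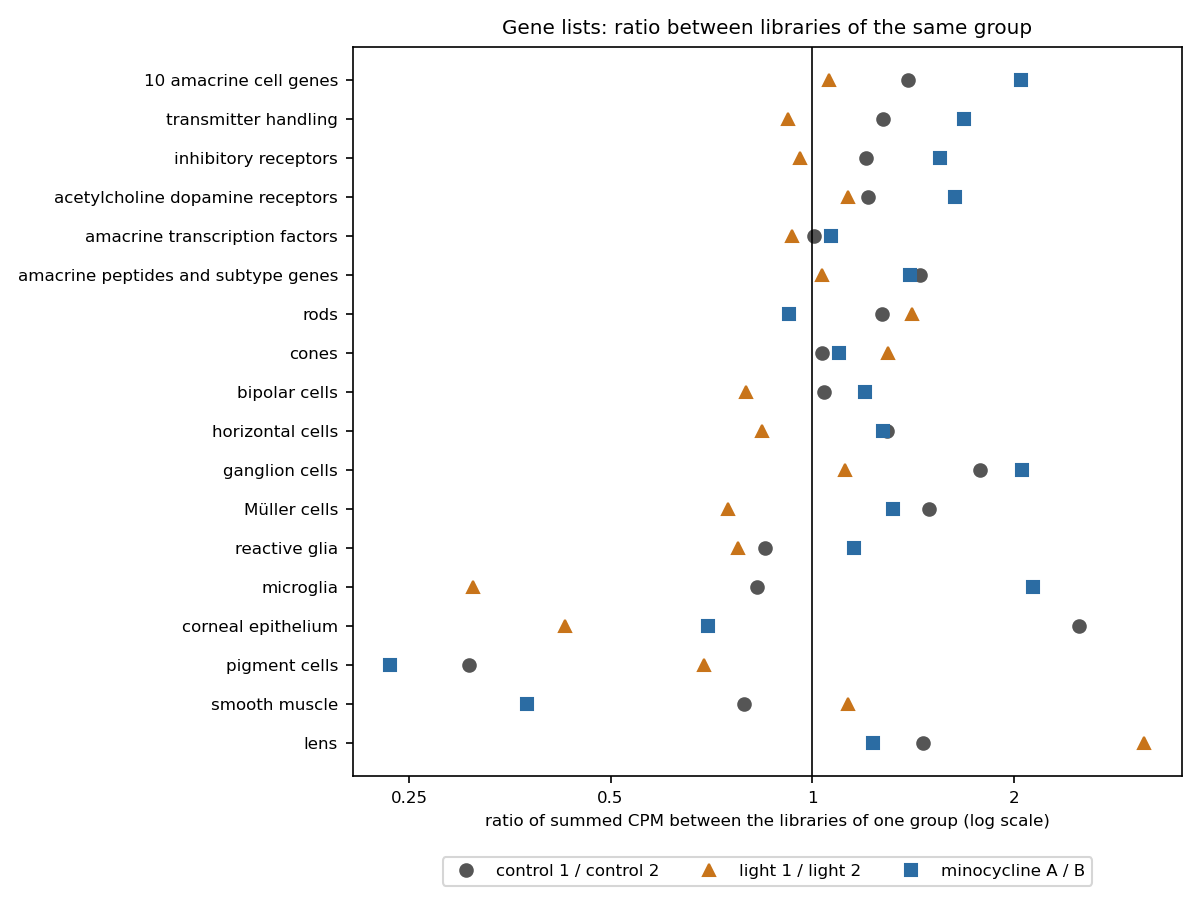
Ratio of summed CPM between the libraries of 1 group for each gene list, on a log2-spaced axis: circles control 1 over control 2, triangles light 1 over light 2, squares minocycline A over B. The amacrine genes (1.39 and 2.05 in the control and minocycline pairs) and the ganglion cell markers (1.78 and 2.06) lie right of 1, and pigment cells lie left of it (0.307 and 0.235).

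Several other retinal lists held genes that passed the test after light. These calls, and those of the partner lists given next, rest on 2 libraries a group, where over all genes 1624 were called. Far fewer genes were called when control 1, control 2 or light 2 was left out, but not when light 1 was. Those fits leave 1 library in a group and hold all 5 remaining libraries. They therefore differ from the main fit in more than the missing library. Of 10 rod genes, Nrl and Cngb1 fell (log2 -0.96 and -0.83, edgeR adjusted p = 0.0296 and 0.0372). Of 12 bipolar cell genes 5 rose, among them Vsx1 (1.16) and Trpm1 (1.12), the channel of ON bipolar cells. In the Müller cell list 2 of 8 rose, in the reactive glia list 6 of 8, and in the microglia list 4 of 10, beside 7.52% of all genes called higher and 3.8% called lower. Ganglion cell markers, like the amacrine genes, had 0 of 10 tested genes called, and 0 at an unadjusted p under 0.05 (edgeR). Under minocycline against light, 3 reactive glia genes fell (Steap4, Serpina3n and Lcn2), beside 0.0407% of all genes called lower, and 2 corneal epithelial genes rose (Dsp and Calml3), beside 0.0136% called higher. Over all genes, this comparison had 0 calls when TMM was replaced by total library size and 2 with DESeq2 size factors, so these 5 calls did not all hold. The first 2 corneal markers, Krt12 and Krt5, stood at 78.3 and 51.1 CPM in minocycline A and 127 and 72.1 CPM in minocycline B. The next, Krt14, was at 0.653 and 0.318 CPM there, at 0.0584 CPM in light 1, and at 0 in control 1, control 2 and light 2.

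Partners of the 10 genes were counted in lists by function. For transmitter handling, 3 of 16 tested genes rose after light, among them Abat and Aldh5a1, both with the light libraries above the controls, and 7.52% of all genes were called higher in this comparison. Abat, the transaminase that breaks down GABA, was at 72.7 and 52.0 CPM in the controls and at 96.1 and 117 CPM after light (log2 0.78, SE 0.18, edgeR adjusted p = 0.0273). Aldh5a1, which acts on the product of Abat, went from 28.4 and 26.5 CPM to 39.4 and 43.3 CPM (log2 0.60, SE 0.16, adjusted p = 0.0375). The enzymes of GABA breakdown are also made by glia, and the Müller cell list moved in the same comparison, with a median log2 value of 0.84. The part of glia was not tested.

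Of the receptors through which these transmitters act, the list of 22 GABA and glycine receptor genes had a median log2 value of 0.48 in light against control. In this list 21 of 22 values were positive and 8 genes had an unadjusted p under 0.05 (edgeR). Over all genes tested the median was 0.00, and 28.9% had an unadjusted p under 0.05. Among 16 acetylcholine and dopamine receptor genes, Chrnb4, a nicotinic subunit, rose from 1.92 and 2.04 to 4.67 and 4.46 CPM (log2 1.21, SE 0.35, adjusted p = 0.0498). Isl1 was the 1 of 19 amacrine transcription factors called, at 58.3 and 45.2 CPM in the controls and 86.3 and 128 CPM after light (log2 1.05, adjusted p = 0.0196). It is a factor of starburst cells but equally of ON bipolar cells, and it stands in the bipolar list as well. Of 22 peptide and subtype genes, Megf10, a cell surface receptor that spaces starburst cells, rose from 22.9 and 21.4 to 34.6 and 40.5 CPM (log2 0.77, adjusted p = 0.0221). Each of these 3 lists thus had 1 gene called higher, a share below the 7.52% of all genes. Across the 5 lists 0 genes were called lower, beside 3.8% of all genes.

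With minocycline, 0 genes of these 5 lists were called against light or against control (edgeR). At an unadjusted p under 0.05, the comparison with light held 1 of 16, 1 of 22, 1 of 16, 4 of 19 and 4 of 22 genes of the lists in that order, where 21.1% of all genes did so. The comparison with control held 2 of 14, 0 of 21, 1 of 16, 1 of 19 and 3 of 22, where 7.01% did so. The gap between the replicates recurred in the lists to different degrees. The first library was higher by 1.5-fold or more in both the control and the minocycline pair for 9 of 22 peptide and subtype genes, 6 of 22 inhibitory receptor genes and 4 of 16 acetylcholine and dopamine receptor genes. It was so for 1 of 16 transmitter handling genes and 1 of 19 transcription factors, of which 9 of 19 were higher by this fold in minocycline A and 2 of 19 in control 1.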

How the data were processed

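Retinal RNA of 3 groups, control, light and light plus minocycline, was read in 2 libraries each. According to the study's methods, stranded mRNA libraries were sequenced as single reads, aligned with STAR to mm10 and assigned to genes in RNA Express. The authors deposited counts per gene. A data statement calls them normalized DESeq2 counts, but the deposited values are whole numbers with different totals and were treated as raw counts. The gene annotation, the versions of STAR, DESeq2 and RNA Express and the use of strand in counting are not given in the sources used here. No value column was left out (0 unused) and 0 rows lacked a gene name.

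For each pair of groups, the whole table was fitted in edgeR 4.0.16 (R 4.3.3) with the filterByExpr filter, TMM factors and robust quasi-likelihood F tests. Benjamini-Hochberg correction covered all genes tested, and genes with an adjusted p under 0.05 were called. SEs were derived from the log2 fold change and F, and intervals are at 95%. Levels are CPM with TMM over 6 libraries, and log2 CPM used a prior count of 2. The floor of 3 counts covers counting error only. Level per length used the exon union of protein-coding transcripts in the GRCm38 annotation. Figures were drawn with matplotlib 3.10.9. The tests were tried on simulated data.

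The 10 members and the 17 further gene lists were chosen with earlier results of these data known. Genes named are the members, the first 3 genes of a cell type list and the genes of a list with an adjusted p under 0.05, at most 6 per list and comparison. Results for a few genes that meet this rule are not reported here. Xist and the overlapping gene Ccdc24 are named as checks, and Penk and Pvalb were chosen after their values were seen. Alternatives were DESeq2 1.42.0, its size factors, total library size, scaling to 20 bipolar and ganglion cell genes, leaving out the filter, requiring 10 counts in each library, no robust estimation, all 6 libraries in one fit, a prior count of 0.5, the replicate block and leaving out each library.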

Additional observations from a re-analysis of the deposited data

How the results depend on the processing

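The count of members called was 0 in all 37 alternative fits. With a prior count of 0.5, the 10 mean levels moved by less than the SD over the 6 libraries. Of the log2 differences of members under alternatives, 322 kept their sign and 48 reversed. The cause of the reversals was not tested. In light against control, Chat was -0.00099 with DESeq2 and Slc6a9 was 0.15 with total library size. Scaling to bipolar and ganglion cell markers gave -0.26 for Gad1, -0.20 for Slc32a1, -0.43 for Chat, -0.11 for Slc18a3, -0.28 for Calb2, -0.18 for Tfap2a and -0.16 for Tfap2b. In minocycline against light, total library size gave -0.017 for Gad2 and -0.078 for Slc6a9. In minocycline against control, Slc6a9 was -0.00074 with DESeq2, -0.39 with the marker scaling and -0.015 with all 6 libraries in one fit, and the marker scaling gave -0.28 for Tfap2a and -0.21 for Tfap2b. Total library size moved the median of all genes to 0.24, -0.17 and 0.06 in the 3 comparisons, and the marker scaling to -0.48, 0.17 and -0.32.

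Leaving out 1 library at a time, light against control ran from -0.25 to 0.68 for Gad1, -0.25 to 0.074 for Slc6a9, -0.25 to 0.79 for Slc32a1, -0.26 to 0.33 for Chat, -0.85 to 0.58 for Th and -0.31 to 0.70 for Calb2. Minocycline against light ran from -0.34 to 0.85 for Gad1, -0.35 to 0.50 for Gad2, -0.12 to 0.27 for Slc6a9, -0.47 to 0.90 for Slc32a1, -0.24 to 0.88 for Chat, -0.018 to 0.91 for Slc18a3, -0.23 to 1.34 for Th, -0.38 to 1.22 for Calb2, -0.61 to 0.15 for Tfap2a and -0.54 to 0.19 for Tfap2b. Minocycline against control ran from -0.18 to 1.04 for Gad1, -0.20 to 0.18 for Slc6a9, -0.27 to 1.15 for Slc32a1, -0.22 to 0.89 for Chat, -0.51 to 1.34 for Th, -0.25 to 1.33 for Calb2, -0.32 to 0.42 for Tfap2a and -0.24 to 0.47 for Tfap2b.

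Control and light carry the same replicate numbers, but the deviations of same-numbered libraries did not correlate across genes (Pearson r = -0.01 over 14713 genes), so the numbers were not taken to pair them. With the replicate block, 0 members were called in light against control, 1 had an unadjusted p under 0.05, and 2525 genes were called in all, against 1624 without it. For minocycline no such fit could be made, since its 2 columns share a single header. Counts over all genes moved by more than 1.5 times in 23 of 37 alternatives and ran from 2 to 2525, from 0 to 1201 (the latter with DESeq2) and from 0 to 187 in the 3 comparisons. With 2 libraries a group, intervals of a few members, such as Th at 15 to 92 counts, reached beyond 4-fold.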

Other observations

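Among the peptide and subtype genes, a pair chosen after their values were seen was higher in minocycline B than in minocycline A, opposite to the members, although higher in control 1 than in control 2 like most of them. Penk, the precursor of enkephalin, was at 4.12 and 1.55 CPM in control 1 and 2, 3.80 and 2.75 CPM in light 1 and 2, and 13.5 and 15.4 CPM in minocycline A and B. Pvalb, which encodes parvalbumin, was at 7.39 and 3.10, 5.96 and 7.12, and 10.5 and 16.3 CPM. Both minocycline libraries lay above the other 4 for each gene. The log2 difference of minocycline against light was 2.16 (SE 0.28) for Penk and 1.05 (SE 0.29) for Pvalb, and neither passed the edgeR test (adjusted p = 0.0691 and 0.115). Against control the values were 2.39 (SE 0.41) and 1.39 (SE 0.42), with adjusted p = 0.104 and 0.447. The minocycline libraries are also those with the summed corneal epithelial level of 213 and 305 CPM, and the part of other tissues in these values was not tested.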
